A study of Oryza sativa with 12 samples.

Results

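The loci described here are 76 rice loci whose RNA nearly disappeared when wild-type seed was kept in salt. They were selected on measured levels, as Os IDs with a mean of at least 20 FPKM (reads or fragments scaled to the length of the gene and the total of the library, so a level per length) in both water groups and a WT salt mean of at most 5% of the WT water mean. Of the 30252 Os loci in the files, 4887 met the level of 20 FPKM in both water groups, and 76 of these also met the limit of 5%, which is 1.56% of the 4887. The choice used the WT salt libraries and both water groups, so the levels in those groups describe the choice, and the osmft1 salt libraries are the ones that it left out.

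RNA-seq was made from total RNA of seeds of Oryza sativa, in 4 groups of 3 libraries each. The groups were osmft1 in salt (a knockout of OsMFT1 on plates with 300 mM NaCl), WT in salt (Zhonghua 11 with 300 mM NaCl), osmft1 in water and WT in water. All seeds were surface-sterilised and kept on wet filter paper at 28 °C with 15 h of light and 9 h of dark, and the solution was changed every 24 h. The labels give no sampling time or germination stage, no mutant allele or number of mutant lines, and no statement that the libraries of a group came from separate seed lots. Stage and response to salt or genotype cannot be told apart here, and a p-value reflects only how far these libraries scatter, which may be technical.

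A germinating cereal seed takes up water, restarts metabolism in the embryo and scutellum, and then breaks down the starch, protein and oil of the endosperm and aleurone to feed the growing shoot and root. Salt in the medium slows water uptake and loads the seed with sodium and chloride ions, and it delays or stops this sequence. MOTHER OF FT AND TFL1 proteins belong to the phosphatidylethanolamine-binding family and are known to act in seed dormancy and germination, in connection with abscisic acid and gibberellin signalling. The files pair no ID with a gene name and none of the 76 IDs matched the gene table used here, so the loci are given by ID with no role. For the same reason the level of the targeted gene and the defining transcripts of seed tissue were not looked up, and the genotype and tissue labels were not checked by them.

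The recovered reads came to 14379728 to 15688593 per library. In salt, the 76 loci together held 40137, 7231 and 7784 reads in osmft1 replicates 1, 2 and 3, and 4290, 3225 and 4727 reads in WT replicates 1, 2 and 3. In water they held 110048, 162763 and 164412 reads in osmft1 and 174279, 218475 and 267640 reads in WT. The osmft1 salt library numbered 1 thus stood apart from the other salt libraries of both genotypes, and results on osmft1 in salt are given below by library or with and without it. In whole-seed RNA, fewer cells of a type and less RNA per cell cannot be told apart.

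In the knockout, too, the salt mean was below the water mean at each of the 76 loci, but the level left differed between its salt libraries. Replicate 1 kept a median of 26.2% of the osmft1 water mean over the 76 loci (quartiles 19.1% and 35.8%, range 2.75% to 110.3%). Replicate 2 kept a median of 4.50% (quartiles 2.30% and 8.51%, range 0 to 40.2%), and replicate 3 kept 4.61% (quartiles 2.27% and 9.89%, range 0 to 33.2%). Replicate 1 lay well above the others, whose medians were close to each other. In WT, replicates 1, 2 and 3 kept medians of 1.28%, 1.36% and 1.85% of the WT water mean, which are low because the loci were chosen for it. The mean of the 3 medians was 11.8% ± 12.5 in osmft1 salt and 1.5% ± 0.312 in WT salt (SD, n = 3 each).

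**Figure D1:**
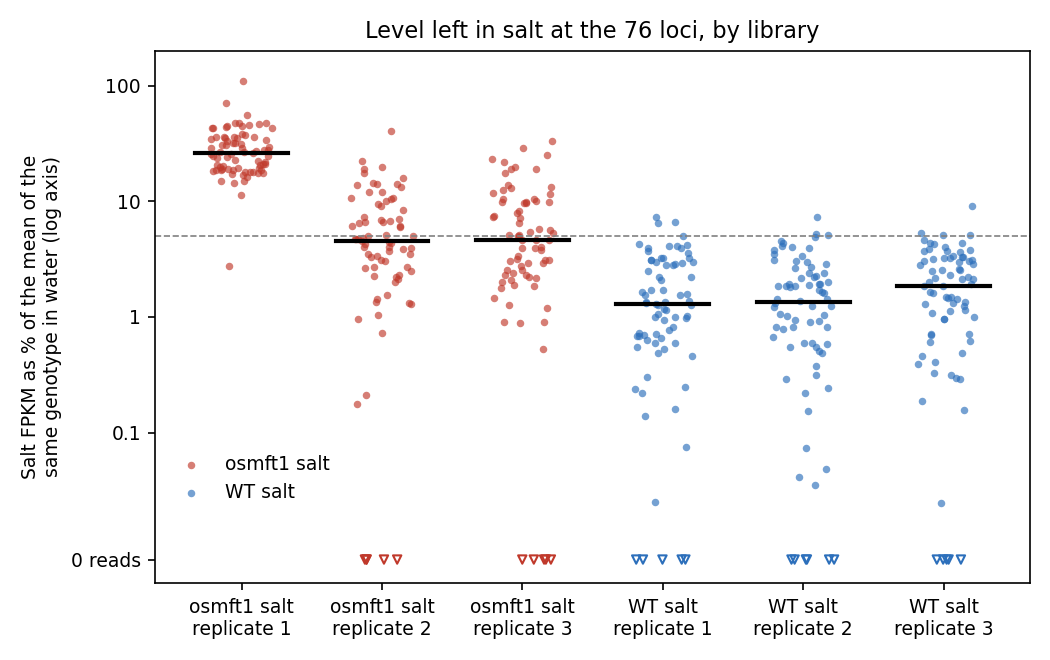
Level of each of the 76 loci in each salt library, as a percentage of the mean of the same genotype in water (log axis). Points are loci, black lines are medians, open triangles are loci with 0 reads, and the dashed line marks the 5% used in the choice of loci for WT. The median is 26.2% in osmft1 salt replicate 1, 4.50% and 4.61% in the other osmft1 salt libraries, and 1.28% to 1.85% in WT.

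By locus, 75 of the 76 stood over 10% of the osmft1 water mean in replicate 1, against 17 in replicate 2 and 18 in replicate 3. At most 5% was left at 1 locus in replicate 1, at 44 in replicate 2 and at 40 in replicate 3. The next counts cover only the 4887 loci with at least 20 FPKM in both water groups. Among these, the mean of osmft1 salt replicates 2 and 3 was at most 5% of the osmft1 water mean at 43 loci. Of the 43, 42 were among the 76. These 42 are 97.7% of the 43 loci and 55.3% of the 76. The remaining locus, Os10g0361300, is named for standing alone there. With replicate 1 included, Os10g0454200 was the 1 locus of the 4887 at or under 5% of the osmft1 water mean. Loci under 20 FPKM in water were not counted.

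In limma, over all tested IDs, 75 of the 76 loci were called lower in salt than in water in osmft1 (adjusted p under 0.05), where 25.5% of the 22017 tested IDs were called lower, and 33% of the other 4811 loci with 20 FPKM in both water groups. The 76 had a median log2 difference of -3.26, against -0.11 over all tested IDs. Differences are on the log2(FPKM + 1) scale, where the change of a low locus comes out too small. Of the 76, 71 were called and at least 4-fold lower, against 1.2% of all tested IDs. All 76 passed the filter on low values through their water levels, and the choice had required 20 FPKM in osmft1 water, so a fall was easier to see at these loci than at most. Without osmft1 salt replicate 1, 76 of the 76 were called lower, beside 22.1% of tested IDs, and the median log2 difference of the 76 was -3.90.

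The most abundant of the loci in WT water was Os10g0361000. It had 771, 32.0 and 45.8 FPKM in osmft1 salt and 132, 55.5 and 106 FPKM in WT salt. In water it had 1591, 3112 and 2750 FPKM in osmft1 and 3411, 1957 and 4290 FPKM in WT. Replicates 2 and 3 of osmft1 salt lay below every WT salt library here, which was the case at 1 of the 76 loci. The log2 difference of salt from water in osmft1 was -4.49 ± 0.92 (SE; limma, adjusted p = 0.0021), and -5.93 without replicate 1 in salt.

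Os02g0629800 came next, with 188, 36.6 and 43.3 FPKM in osmft1 salt and 26.8, 18 and 14 FPKM in WT salt. In water it had 669, 1114 and 1039 FPKM in osmft1 and 1575, 1989 and 2423 FPKM in WT. The genotypes did not overlap under either condition, osmft1 being higher in salt and lower in water. Its log2 difference of salt from water in osmft1 was -3.76 ± 0.50 (SE; limma, adjusted p = 0.000124), and -4.49 without replicate 1 in salt. Os10g0551900, the third, kept 352, 49.4 and 58.7 FPKM in osmft1 salt, against 26.9, 19.4 and 41.6 FPKM in WT salt, and again osmft1 was above WT in every salt library. It had 698, 1037 and 706 FPKM in osmft1 water and 1210, 806 and 1205 FPKM in WT water (log2 difference in osmft1 -2.97 ± 0.59, SE; limma, adjusted p = 0.00167, and -3.87 without replicate 1 in salt).

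At each of the other 7 of the 10 most abundant loci, replicate 1 was again the highest of the osmft1 salt libraries. Replicate 1 of osmft1 salt had 27.8 FPKM of Os03g0738600, 74.1 of Os03g0279200, 66.9 of Os03g0103200 and 87.5 of Os09g0484200. Replicates 2 and 3 had 6.65 and 4.94 FPKM of Os03g0738600, 8.59 and 7.16 of Os03g0279200, 9.35 and 7.42 of Os03g0103200 and 13.1 and 10.6 of Os09g0484200. Of Os10g0551800 replicates 1, 2 and 3 had 73.1, 2.88 and 1.87 FPKM. Os10g0552800 and Os01g0251400 were higher in the other libraries too, at 135, 83.6 and 66.4 FPKM and at 70.0, 22.7 and 29.5 FPKM. Replicates 2 and 3 overlapped the WT salt libraries at Os03g0103200 (13.2, 8.86 and 12.5 FPKM in WT), Os03g0738600 and Os10g0551800. At the rest of the 7 they lay above every WT salt library. At these 7 loci the WT salt libraries ranged from 0.11 FPKM (Os10g0551800, replicate 2) to 19.6 FPKM (Os10g0552800, replicate 3), and the osmft1 log2 differences from -4.49 (Os03g0738600) to -2.02 (Os10g0552800), each called lower. Without replicate 1 in salt these differences ranged from -5.97 (Os10g0551800) to -2.30 (Os10g0552800).

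The 5 loci with the lowest share in WT salt included 3 with 0 reads in every WT salt library: Os06g0335975, Os10g0349400 and Os10g0536600. With 3 reads taken as the floor for the 3 libraries together, they were at least 420-fold, 1074-fold and 259-fold lower in WT salt than in WT water. In osmft1 salt they also had 0 reads in replicates 2 and 3, and 10.9, 17.7 and 11.4 FPKM in replicate 1. All reads of these loci in osmft1 salt (46, 109 and 39 reads) therefore came from 1 library. With 0 reads in a library a level of up to 3 reads remains possible, and these limits cover counting error only.

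Os10g0349300 and Os10g0552700, named because they shared this pattern, also had 0 reads in osmft1 salt replicates 2 and 3 and had 11.0 and 6.55 FPKM in replicate 1. Their WT salt levels were 0, 0 and 0.286 FPKM for Os10g0349300 and 0, 0.107 and 0 FPKM for Os10g0552700. Across the 12 libraries, these 5 loci were seen in every water library and in 1 osmft1 salt library, with single WT salt libraries at 2 of them.

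Os03g0836800 and Os08g0101100 completed the 5 lowest in WT salt, with 2 and 1 reads over the 3 WT salt libraries. Os03g0836800 had 6.72, 0.068 and 0.203 FPKM in osmft1 salt, and 35.7, 38.7 and 41.9 FPKM in osmft1 water, against 144, 356 and 310 FPKM in WT water. Its water level in osmft1 was 0.144 of that in WT, the lowest ratio among the 76 loci, and the water libraries of the genotypes did not overlap. Os08g0101100 had 4.90, 1.57 and 1.02 FPKM in osmft1 salt, 27.4, 32.0 and 39.8 FPKM in osmft1 water and 21.3, 34.7 and 36.7 FPKM in WT water, so that here the water levels overlapped. Its log2 difference in osmft1 was -3.43 ± 0.34 (SE; limma, adjusted p = 1.7e-05).

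**Figure D2:**
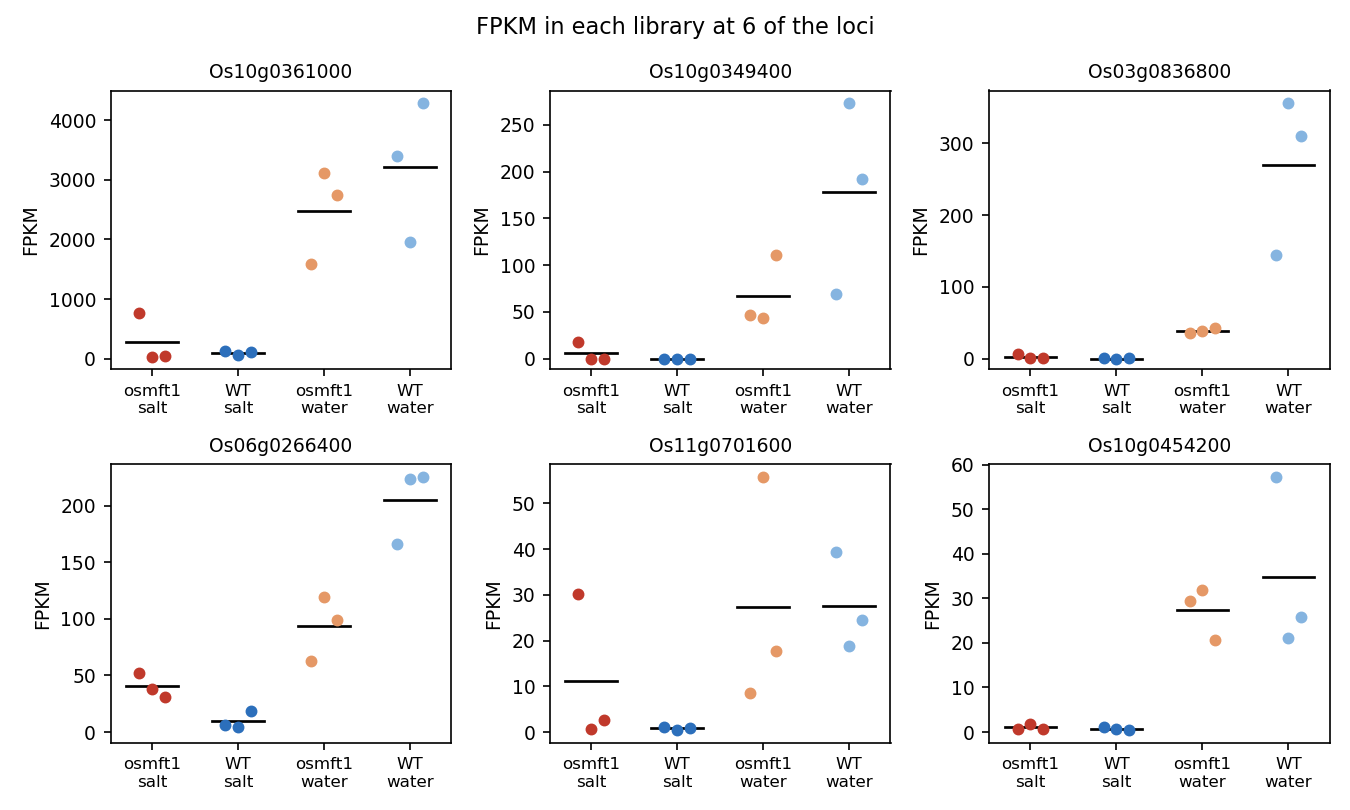
FPKM of 6 of the loci in each library (points, replicates 1 to 3 from left to right in each group) with the group mean (line), on linear axes that differ between panels. Os10g0349400 has 17.7 FPKM in osmft1 salt replicate 1 and 0 in the other salt libraries, Os06g0266400 keeps 31.2 to 52.4 FPKM in all osmft1 salt libraries, and Os10g0454200 is at most 1.90 FPKM in every osmft1 salt library.

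The most was kept in osmft1 salt, as a group mean, at Os06g0266400, with 43.1% of the osmft1 water mean (36.7% without replicate 1). It had 52.4, 37.7 and 31.2 FPKM in osmft1 salt and 6.35, 4.6 and 18.8 FPKM in WT salt, with 63.0, 119.7 and 98.9 FPKM in osmft1 water and 166, 224 and 226 FPKM in WT water. Every osmft1 salt value was above the WT salt values and below the osmft1 water values. The log2 difference of salt from water in osmft1 was -1.18 ± 0.40 (SE; limma, adjusted p = 0.0312). This call was lost with no filter, with median-ratio scaling, and without osmft1 salt replicate 2 or 3 or osmft1 water replicate 2 or 3 (limma, adjusted p 0.0553 to 0.106).

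Os11g0701600 was the locus not called in osmft1. It had 30.2, 0.726 and 2.71 FPKM in osmft1 salt and 1.08, 0.526 and 0.895 FPKM in WT salt, against 8.63, 55.8 and 17.8 FPKM in osmft1 water and 39.3, 18.8 and 24.4 FPKM in WT water. Its spread was wide in osmft1 under both conditions, and replicate 1 in salt exceeded 2 of the osmft1 water libraries (log2 difference -1.90 ± 0.89, SE; limma, adjusted p = 0.1). Without osmft1 salt replicate 1 it was called, with a log2 difference of -3.10 (limma, adjusted p = 0.00242), and its share of the osmft1 water mean was 6.26%, against 40.9% with all 3 libraries.

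Os12g0114800, Os06g0553200, Os10g0563900 and Os01g0251400 were the others among the 6 that kept most, at 30.9%, 30.2%, 26.7% and 26.0% of the osmft1 water mean. Without replicate 1 their shares were 22.6%, 10.1%, 18.8% and 16.6%. Os06g0553200 owed this to replicate 1, with 65.1 FPKM against 9.82 and 8.85 FPKM in replicates 2 and 3. Os12g0114800 kept 65.7, 27.5 and 34.9 FPKM and Os10g0563900 kept 17.4, 6.50 and 8.84 FPKM, so that at these loci all 3 osmft1 salt libraries were above the highest WT salt library, at 18.7 FPKM for Os12g0114800 and 4.01 FPKM for Os10g0563900. In replicate 3 alone, Os02g0445100 was second highest by share, at 28.7%, with 5.22, 2.79 and 5.81 FPKM in osmft1 salt against 5.46, 2.00 and 3.19 FPKM in WT salt. Its share came with a low osmft1 water level (19.3, 19.0 and 22.6 FPKM, against 78.7, 79.2 and 66.0 FPKM in WT water), and in FPKM the salt libraries of the genotypes overlapped.

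By the mean of all 3 osmft1 salt libraries, which replicate 1 dominates, Os10g0454200 kept least, with 3.96% of the osmft1 water mean. In replicates 2 and 3 alone it kept 4.57%, close to the median of the 76 loci, while the 5 loci with 0 reads in both were lowest there. It had 0.753, 1.90 and 0.601 FPKM in osmft1 salt and 1.12, 0.668 and 0.511 FPKM in WT salt, which overlapped. In water it had 29.5, 32.0 and 20.7 FPKM in osmft1 and 57.3, 21.1 and 25.9 FPKM in WT (log2 difference in osmft1 -3.80 ± 0.34, SE; limma, adjusted p = 1.0e-05). It was the 1 locus of the 76 at which osmft1 salt replicate 2 was the highest of its group. By the mean of the 3 libraries, Os03g0738600 (5.34%), Os03g0836800 (6.01%), Os03g0234100 (6.51%), Os01g0502700 (6.52%) and Os04g0419600 (6.99%) came next, each with its highest osmft1 salt value in replicate 1. Without replicate 1 their shares were 2.36% at Os03g0738600, 0.349% at Os03g0836800, 1.00% at Os03g0234100, 2.61% at Os01g0502700 and 2.08% at Os04g0419600, so that both the values and their order rested on that library.

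At 74 of the 76 loci replicate 1 was the highest of the 3 osmft1 salt libraries. At the 71 loci with reads in replicate 2 or 3, replicate 1 stood at a median of 4.87 times the mean of the others, from 0.60 (Os10g0454200) to 64.8 times. The same ratio had a median of 0.99 over all 22017 tested IDs, of 1.01 over the other 4811 loci with 20 FPKM in both water groups, and of 0.99 (0.38 to 2.02) over 21 loci with at least 20 FPKM in both salt groups and a WT water mean of at most 5% of the WT salt mean. The excess of replicate 1 over the mean of replicates 2 and 3 had a median of 20.0% of the osmft1 water mean, with quartiles of 14.7% and 27.7%. The part of this library's depth, sample handling or stage in the result was not tested.

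Replicates 2 and 3 ordered the loci much as each other and as WT salt did, and replicate 1 less so. Over the 76 loci, which share libraries and are not replicates, the share kept in replicate 2 and in replicate 3 were related with r = 0.87 (Pearson) and rho = 0.81 (Spearman). With the 3 WT salt libraries, whose shares are of the WT water mean, rho ran from 0.66 to 0.77 for replicates 2 and 3 and from 0.27 to 0.36 for replicate 1. Replicate 1 gave r of 0.25 and 0.35 and rho of 0.23 and 0.38 with replicates 2 and 3. The 3 osmft1 shares have the osmft1 water mean in common as the denominator. At 9 loci replicate 1 was under 2 times the mean of the others. Among these, Os09g0346500 (12.2, 11.3 and 11.8 FPKM) and Os04g0474800 (14.7, 13 and 11.5 FPKM) are named as the most even of those with replicate 1 on top, and both lay above all WT salt libraries, at 1.40 to 2.89 FPKM for Os09g0346500 and 2.97 to 5.08 FPKM for Os04g0474800.

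**Figure D3:**
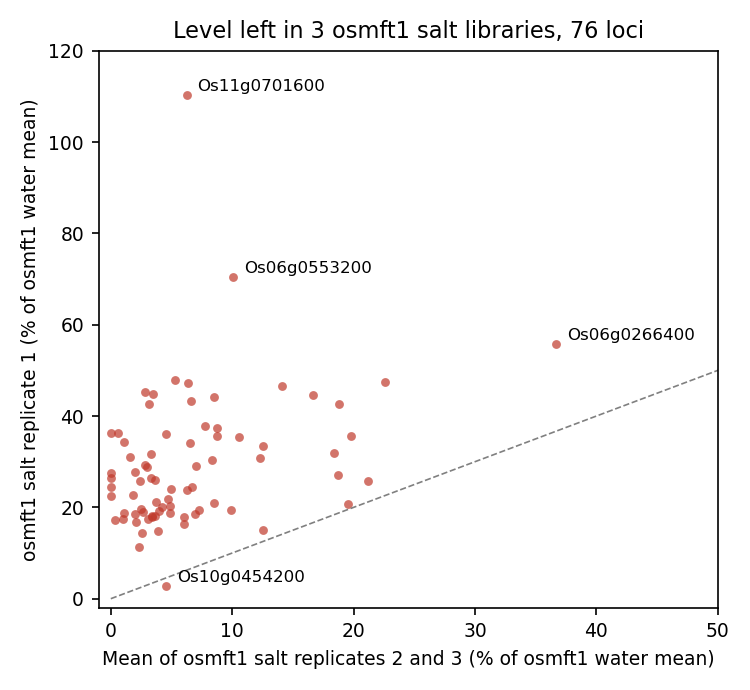
Level left at each of the 76 loci in osmft1 salt replicate 1 (vertical) and as the mean of replicates 2 and 3 (horizontal), both as a percentage of the osmft1 water mean. The dashed line marks equal levels. Most loci lie above it, Os11g0701600 at 110.3% and Os06g0553200 at 70.4% in replicate 1, while Os10g0454200 lies below it.

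Set against WT salt directly, osmft1 salt replicate 1 lay above every WT salt library at 74 of the 76 loci, where 39.0% of all tested IDs did. Replicate 2 did so at 55 loci (46.4% of all tested IDs) and replicate 3 at 55 loci (34.4%). At 46 loci the 3 osmft1 salt values all exceeded the 3 WT salt values, against 18.7% of tested IDs, and replicates 2 and 3 alone gave 46 loci as well, against 23.6%. In FPKM, the median ratio to the WT salt mean over loci with a WT salt level above 0 was 12.3 in replicate 1, 2.1 in replicate 2 and 2.26 in replicate 3. Because the loci were chosen for a low WT salt level, these counts describe them and test nothing. Limma called 22 of the 76 higher in osmft1 than in WT in salt (4.33% of tested IDs), and it called 22 with a positive interaction of genotype and salt (6.92% of tested IDs, beside 6.12% with a negative one), from which nothing is read for the same reason. The same holds for salt in WT, where all 76 were called lower (28.2% of tested IDs).

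The loci were chosen again with 1 WT salt library in place of 3. Replicate 1 alone gave 83 loci, 73 of them among the 76. At these 83 loci the osmft1 salt libraries kept medians of 26.7%, 4.76% and 5.03% of the osmft1 water mean, and the WT salt libraries not used, replicates 2 and 3, kept 1.62% and 2.11% of the WT water mean. Replicate 2 alone gave 81 loci, with 25.8%, 4.68% and 4.62% in osmft1 salt, and 1.34% and 2.02% in WT salt replicates 1 and 3. Replicate 3 alone gave 74 loci, with 25.9%, 4.39% and 4.61% in osmft1 salt, and 1.28% and 1.36% in WT salt replicates 1 and 2. Each of these choices still required a high WT water mean, by which the WT shares were then divided, and 72 or 73 of the loci were the same as before. The osmft1 shares have another denominator, the osmft1 water mean, so these values describe how the choice acts and compare nothing between the genotypes.

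In water most of the loci had a lower group mean in osmft1 than in WT. The ratio of the osmft1 water mean to the WT water mean had a median of 0.755 over the 76 loci and was under 1 at 68 of them. Over the other 4811 loci with 20 FPKM in both water groups the median was 0.961, and 55.7% were under 1. The denominator is the group in which the loci had to be high relative to salt, so this difference is a description. By library the difference was less clear. Every osmft1 water library lay below every WT water library at 20 of the 76 loci (26.3%), against 29.2% of the other 4811. Limma called 11 of the 76 lower in osmft1 water, against 10.4% of tested IDs, a share near that background. It called 0 of the 76 higher, against 20% of tested IDs. The choice used both water groups, so nothing is read from any of these counts. Os07g0429700, named as the highest ratio at 1.81, had 165, 557 and 316 FPKM in osmft1 water and 207, 186 and 180 FPKM in WT water, which overlapped.

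A share of the WT water mean in place of the osmft1 water mean therefore gave lower values, with medians of 18.1%, 3.44% and 3.64% in osmft1 salt replicates 1, 2 and 3. Replicate 1 remained the highest of the 3.

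The 76 loci also varied more between water libraries than other loci of that level. Their median coefficient of variation was 25.8% in osmft1 water and 35.7% in WT water, against 9.17% and 9.92% over the other 4811 loci. In osmft1 water, replicate 1 was the lowest library at 61 of the 76 loci and replicate 3 the highest at 54. In WT water, replicate 1 was the lowest at 59 and replicate 3 the highest at 43. Replicate 1 held a median of 0.75 of the group mean in osmft1 water and 0.72 in WT water, where the other 4811 loci stood at 0.98 and 1.02. The numbers of the replicates mark no shared lot in the labels, and the part of stage or handling in this spread was not tested.

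**Figure D4:**
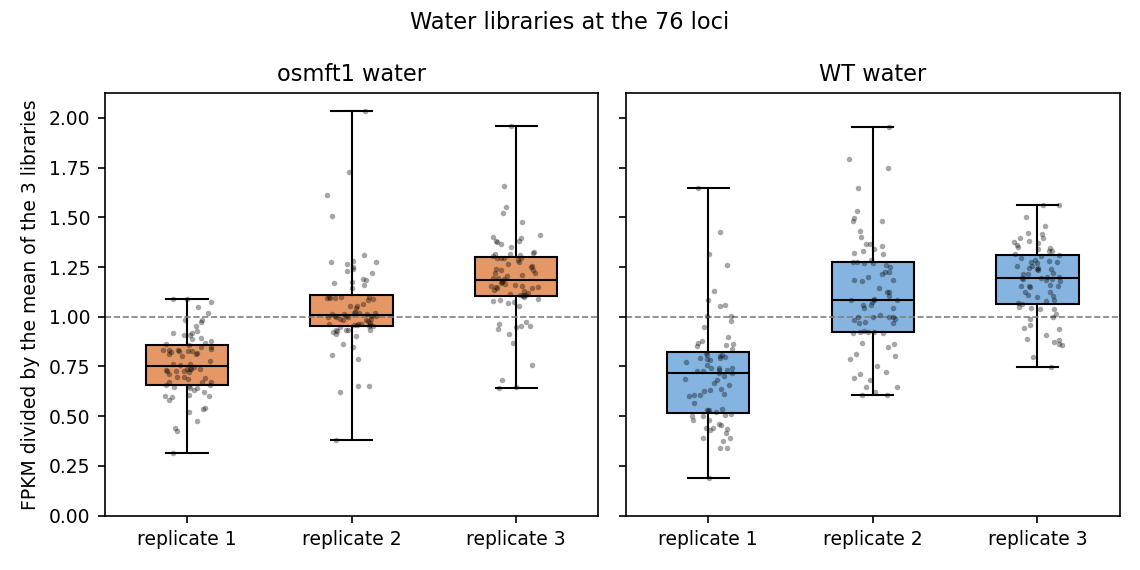
FPKM of the 76 loci in each water library divided by the mean of the 3 libraries of the group, for osmft1 (left) and WT (right). Points are loci, boxes show quartiles and medians, and whiskers the whole range. The median of replicate 1 is 0.75 in osmft1 and 0.72 in WT, below the other libraries of the group.

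The loci were unevenly spread over the chromosomes, which were read from the IDs, since Os IDs carry the chromosome and run along it. Chromosome 10 held 13 of the 76 loci, or 17.1%, while it held 4.87% of all loci with 20 FPKM in both water groups. Of the 238 such loci on chromosome 10, 5.46% were among the 76. Chromosome 3 held 12 loci (15.8%, against 15.8%), chromosomes 1, 2 and 6 held 8 each, and chromosomes 11 and 12 held 2 each. These shares were not tested.

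**Figure D5:**
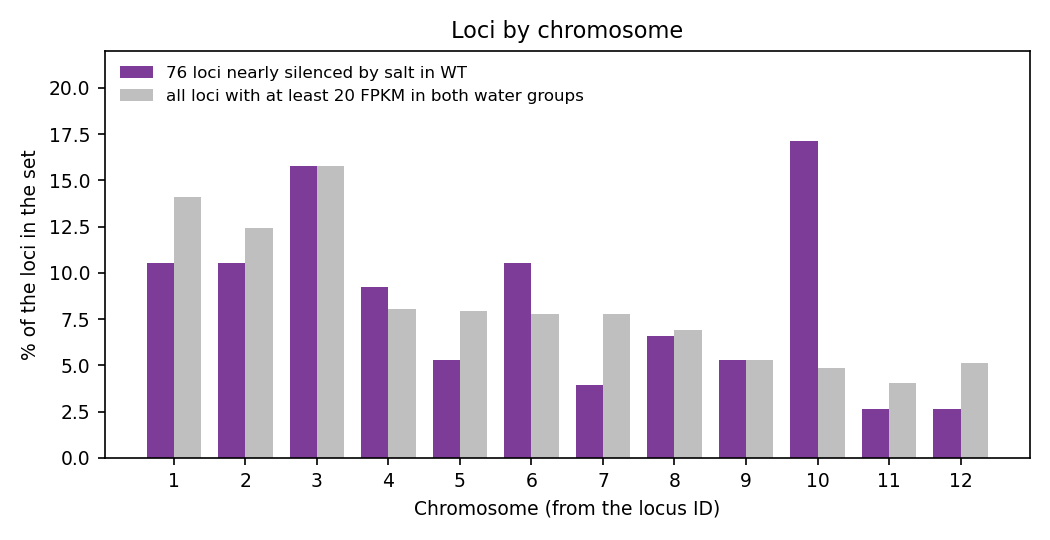
Share of the 76 loci on each chromosome (purple) beside the share of all 4887 loci with at least 20 FPKM in both water groups (grey), in percent of each set. Chromosome 10 has 17.1% of the 76 loci and 4.87% of the 4887.

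Neighbouring loci occurred among them. In the order of listed Os IDs, 5 pairs of the 76 were next to each other and 15 of the 76 lay within 10 listed loci of another. No such count was made for other loci, so whether the 76 lie closer together than others was not tested. A stretch of 8 listed loci on chromosome 10, from Os10g0551800 to Os10g0552800, held 5 of the 76: Os10g0551800, Os10g0551900, Os10g0552200, Os10g0552700 and Os10g0552800. This stretch was picked out after its values were seen. Its members kept different shares in osmft1 salt replicates 2 and 3, from 0 reads at Os10g0552700 to 83.6 and 66.4 FPKM at Os10g0552800. Os10g0552300, between them and not among the 76, had 193, 139 and 134 FPKM in osmft1 salt, against 94.0, 71.8 and 118 FPKM in WT salt, and 626, 629 and 557 FPKM in osmft1 water, against 647, 653 and 697 FPKM in WT water. Os10g0552600 had 1.16, 0 and 0 FPKM in osmft1 salt and 0 in each WT salt library, with 4.01, 6.28 and 14.6 FPKM in osmft1 water and 6.65, 5.45 and 9.48 FPKM in WT water, so it was low in salt like the 5 but under the level of 20 FPKM in water. Os10g0552400 went the other way, with 9.61, 8.93 and 6.42 FPKM in osmft1 salt and 6.52, 5.6 and 8.43 FPKM in WT salt, against 3.38, 2.57 and 3.19 FPKM in osmft1 water and 4.48, 1.65 and 2.11 FPKM in WT water. Of the 3 loci of the stretch outside the 76, 1 was thus near 0 in WT salt, 1 was lower there than in water by less, and 1 was higher. No sequence was used here, and if neighbours of this kind are near-identical copies, their reads may have been shared out between them or dropped.

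Os03g0234000 and Os03g0234100, another adjacent pair, are given as an example after their values were seen. Os03g0234000 had 38.9, 2.73 and 1.90 FPKM in osmft1 salt and 0.678, 1.45 and 2.02 FPKM in WT salt, with 113, 241 and 269 FPKM in osmft1 water and 180, 321 and 356 FPKM in WT water. Os03g0234100 had 20.2, 0.840 and 1.46 FPKM in osmft1 salt and 0.139, 0.135 and 0.345 FPKM in WT salt, with 48.9, 121 and 175 FPKM in osmft1 water and 111, 234 and 207 FPKM in WT water. At both, replicate 1 was the highest in osmft1 salt and the lowest in both water groups, as at most of the 76 loci, while replicates 2 and 3 stood in opposite orders at the pair in osmft1 salt and in WT water.

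The 76 loci were short. Their length implied by the steps of the values had a median of 860.5 bases, from 231 (Os10g0536600) to 2927 bases (Os03g0738600), against 1293 bases over the other 4811 loci and 1524 bases over all tested Os loci. The part of length in their levels was not tested.

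Some loci lay close to the limits of the choice. Just inside 5% in WT were Os01g0866200 (4.93%), Os06g0266400 (4.83%) and Os02g0445100 (4.75%), and just outside were Os06g0126500 (5.09%), Os12g0569200 (5.26%) and Os08g0297800 (5.36%). By the lower of the water means, Os07g0631700 (20.2 FPKM), Os02g0445100 (20.3 FPKM) and Os10g0452300 (21.2 FPKM) were just inside 20 FPKM. Os07g0432201 (19.6 FPKM), Os04g0685000 (19.1 FPKM) and Os06g0115700 (18.8 FPKM) met the 5% but were just outside 20 FPKM. A single WT salt library exceeded 5% of the WT water mean at 8 of the 76 loci.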

How the data were processed

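Each library came as 1 deposited file with 1 value per ID and 35204 IDs. The values were treated as FPKM made by the authors, because no header names a unit and low values of an ID are whole multiples of 1 step. The build IRGSP-1.0 and the tools Bowtie2 2.2.3, HISAT2 2.1.0 and HTSeq 0.6.0 are listed in the submitters' processing notes without their roles. The annotation release is not given in the sources used here, nor are the strand setting and the step that made FPKM. Without strand, reads of a gene cannot be separated from those of an overlapping or antisense one.

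The steps gave whole reads, accepted only within 0.003 reads, and each library's total. In every library the recovered reads came to at least 99.997% of that total. Reads and totals were used for read numbers, for the floor of 3 reads and for voom as an alternative. The test was run on the 22017 IDs that reached 1 FPKM in 3 or more libraries, after adding a pseudocount of 1 and taking log2, using limma 3.58.1 (R 4.3.3) with 1 mean per group over 12 libraries, a variance trend, 8 residual degrees of freedom and Benjamini-Hochberg adjustment over all tested IDs. The recovery and the fit were tested on simulated data. Chi-square of reads per degree of freedom between libraries of a group was 7.70 to 23.7, so no library repeated another.

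The members, lists and tests were chosen with earlier results of these data known. Named loci were the 10 highest in WT water, the 5 lowest shares in WT salt, the 6 highest and lowest shares in osmft1 salt, the 3 highest in each osmft1 salt library, those not called in osmft1, and those nearest the limits. Any other ID is named for a reason given beside it. The lists by gene family, tissue marker and promoter needed names or sequences for the IDs and were not used, since 1 Os ID and none of the 76 matched the gene table of ASM3414082v1. Alternatives changed the pseudocount, filter, scaling, block, libraries, test and limits. Python 3.11.15 with pandas 2.3.3 and numpy 2.4.6 was used for tables.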

Additional observations from a re-analysis of the deposited data

How the results depend on the processing

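The number of loci followed the limits of the choice. A limit of 2% of the WT water mean gave 45 loci, with osmft1 salt replicates 1, 2 and 3 above every WT salt library at 45, 34 and 31 of them and all 3 above at 28. A limit of 10% gave 126 loci, with 119, 87 and 93, and 76 with all 3 above. A level of 10 FPKM gave 115 loci, with replicate 1 above at 113. A level of 50 FPKM gave 39 loci, with 39, 32 and 28, and 26 with all 3 above. Over all tested IDs, replicates 1, 2 and 3 were above every WT salt library at 39.0%, 46.4% and 34.4%, and all 3 at 18.7%. Each choice still asked for a low WT salt level, so these counts describe it and test nothing. Leaving out 1 library in turn gave 73 to 82 loci. Of the 76, 74 to 76 were then called lower in osmft1, beside 20.1% to 25.5% of tested IDs. The median share kept by osmft1 salt replicate 1 then ran from 24.2% to 29.6%, that of replicate 2 from 3.93% to 4.97% and that of replicate 3 from 4.31% to 5.05%. Over the other alternatives these medians ran from 18.1% to 29.0%, from 2.12% to 8.36% and from 2.58% to 10%. The lowest values of replicates 2 and 3 came with the WT salt mean subtracted and the highest with the limit of 10%.

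With a replicate block 75 of the 76 loci were called lower in osmft1, as without it, beside 25.5% of tested IDs. The labels do not say that numbers pair the libraries. Deviations of osmft1 salt and osmft1 water libraries with the same number correlated at -0.19, -0.13 and 0.13 over tested IDs, and of these osmft1 salt libraries only replicate 3 correlated best with its own number in osmft1 water. Over all pairs of groups 4 of 18 such correlations were over 0.1, among them 0.19 and 0.24 for replicates 1 and 3 of osmft1 water and WT water, which were each best with their own number, while replicate 2 gave -0.03. Over 28 named loci and 19 alternatives, 525 of 532 results kept direction and side of the threshold. The exceptions were 6 lost calls at Os06g0266400 and 1 gained at Os11g0701600, and the cause was not tested. At 0 to 3 reads per library, differences between salt libraries were not detectable at this depth.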
